A study of Mus musculus with 9 samples.

Results

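The target antigens of organ-specific autoimmunity described here are 8 genes, Mog, Mbp, Gad1, Gad2, Rbp3, Chrna1, Tg and Atp4a, whose products are attacked in autoimmune disease of nerve, islet, eye, muscle, thyroid or stomach. They were chosen by the gene symbol that the deposited table gives each probe set. Each of the 8 symbols occurred on 1 probe set, so the antigens are 8 of 35552 probe sets and 8 of 19593 named genes. Their expression was measured by array in medullary thymic epithelial cells sorted for CD80, from the thymus of female Balb/c mice aged 4 to 6 weeks. The 9 arrays form 3 groups of 3, called here by the numbers in the sample names. Wild type (arrays 1 to 3) had intact C2TA, in the knockdown (arrays 4 to 6) C2TA was silenced, and in the knockout (arrays 7 to 9) the gene was disrupted. C2TA is the factor without which MHC class II genes are hardly transcribed, and its gene bears the symbol Ciita. From what is known of the study rather than from its labels, the silencing hairpin was carried by a transgene under control of the Aire locus, which is active in mature medullary epithelium. Arrays of a group are biological replicates by their labels, which leave the number of mice per array unsaid; the p-values therefore cover the spread among these arrays only.

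Medullary thymic epithelial cells transcribe a wide range of genes that otherwise belong to single organs. Developing T cells that bind these self-antigens strongly are deleted or turned into regulatory T cells, and a failure of this display can leave T cells that attack the organ. The regulator Aire drives one share of these tissue-restricted antigens, while others are transcribed in the same cells without it. Among the 8 genes, Rbp3 and Chrna1 were taken from general knowledge as antigens that need Aire in the thymus, and Gad1 as one that does not. These classes were not tested with these data. The other 5 were left unclassified because their dependence in mouse was not certain from the sources used here.

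The level of a probe set is given on the log2 scale of RMA, the method by which the authors corrected background, normalized between arrays and summarised probes. None of the 8 antigens differed between groups past the threshold, a Benjamini-Hochberg adjusted p of 0.05 in limma over all genes. Between knockdown and wild type the number past it was 0 of 8, where 0.0664% of all genes passed. Between knockout and wild type it was 0 of 8 against 0.0459% of all genes, and between knockdown and knockout 0 of 8 against 0.0408%. At an unadjusted limma p under 0.05 the number was 0 of 8 in each comparison, against 5.24%, 3.34% and 5.04% of all genes. A limma F test over the 3 groups also passed 0 of 8 antigens, with an unadjusted p of 0.238 to 0.873, where 0.0919% of all genes passed after adjustment and 5.08% had an unadjusted p under 0.05. For no antigen were the arrays of a pair of groups apart, although in 6 of 24 cases, from Chrna1, Tg and Gad2, the groups only touched at 1 equal value, which counts here as overlap. Over all genes the arrays did not overlap in 8.25% for knockdown and wild type, 4.83% for knockout and wild type and 9.6% for knockdown and knockout.

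**Figure D1:**
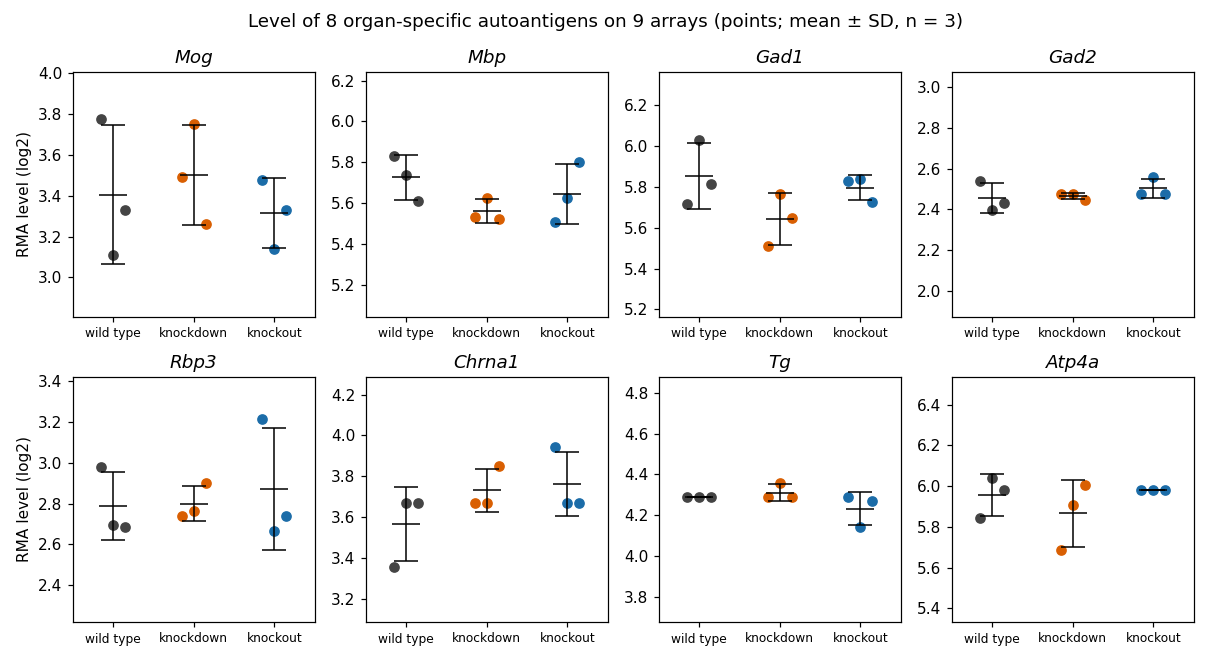
RMA level (log2, vertical axis) of the 8 antigens on the 9 arrays, with 1 panel per gene, points for arrays, and bars for the mean and SD of the 3 arrays of a group. Every panel spans the same number of log2 units, and in each panel the arrays of the 3 groups overlap or touch at an equal value.

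The labels were checked with the targeted gene and with Aire. Ciita lay at 6.37, 6.55 and 6.28 in wild type, at 5.44, 4.94 and 5.50 in the knockdown and at 5.96, 6.16 and 6.11 in the knockout. Its difference from wild type was -1.11 (SE 0.16, limma adjusted p = 0.055) in the knockdown and -0.33 (SE 0.16) in the knockout, where its probes need not fall within the disrupted part of the gene, so that this value checks nothing. Aire lay at 9.60, 10.04 and 9.93 in wild type, at 11.50, 11.44 and 11.25 in the knockdown and at 9.76, 9.71 and 9.86 in the knockout. Its difference of 1.54 (SE 0.14, limma adjusted p = 0.0036) between knockdown and wild type stands beside every comparison with that group. Extra copies of the Aire locus carried by the transgene and a response of the cells to silencing cannot be told apart here.

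All 9 markers of medullary epithelium used for this check, among them Epcam, Cd80, Krt5 and Krt14, had levels of at least 6.17 on every array. Their mean per array, Aire included, lay between 7.88 and 8.41. Between knockdown and wild type 1 of 9, Aire, passed the adjusted threshold, beside 0.0664% of all genes. An unadjusted limma p under 0.05 was found for 3 of 9 (5.24% of all genes), namely Aire, Krt5 with 0.58 and Cldn3 with -0.31. The arrays of these 2 groups did not overlap for 3 of 9, beside 8.25% of all genes. Array-wide, the interquartile range of all probe sets was smallest on wild type 1 with 2.50 and next on knockout 7 with 2.68, and between 2.85 and 3.04 on the others. The 4 Y-linked genes Ddx3y, Uty, Eif2s3y and Kdm5d, which female mice lack, ranged from 1.51 to 2.79, and each of the 4 stood highest on these same arrays, wild type 1 and knockout 7.

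The antigens of the nervous system and the islet come first. Myelin oligodendrocyte glycoprotein, Mog, is a minor protein on the outer face of the myelin sheath and the target of antibodies and T cells in experimental encephalomyelitis. Mog lay at 3.78, 3.11 and 3.33 in wild type, at 3.49, 3.75 and 3.26 in the knockdown and at 3.48, 3.14 and 3.33 in the knockout. The highest arrays were wild type 1 and knockdown 5, and the lowest were wild type 2 and knockout 8. Mog had the widest spread of the 8 antigens, with a range of 0.67 over the 9 arrays and an SD larger than that of 65.4% of all genes. Its difference was 0.10 (SE 0.19) for knockdown and wild type, -0.09 (SE 0.19) for knockout and wild type and 0.19 (SE 0.19) for knockdown and knockout. The first was -0.05 without wild type 2 and -0.03 without knockdown 5, and the second was 0.10 without wild type 1.

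Myelin basic protein, Mbp, holds the inner faces of the myelin membrane together, and transcripts from the same locus, called golli, are known in lymphoid cells. Mbp lay at 5.83, 5.74 and 5.61 in wild type, at 5.53, 5.63 and 5.52 in the knockdown and at 5.51, 5.63 and 5.80 in the knockout. The highest arrays were wild type 1 and knockout 9, and the 3 knockdown arrays fell in the lower part of the wild-type range or below it. Means of the 3 groups, each with n = 3, were 5.73 ± 0.11 (SD) for wild type, 5.56 ± 0.06 for knockdown arrays and 5.64 ± 0.15 for knockout arrays. The difference between knockdown and wild type was -0.17 (SE 0.11, limma adjusted p = 0.983). Thymocyte markers are given beside Mbp because of the golli transcripts. Of 6 listed, 5 were measured, and their mean level lay between 4.67 and 4.92 in wild type, between 4.63 and 5.0 in the knockdown, and at 4.77, 5.93 and 5.60 on knockout 7, 8 and 9. Mbp was lowest on knockout 7, stood at the middle value of the 9 arrays on knockout 8 and was below only wild type 1 on knockout 9. The part of thymocytes in the level of Mbp was not tested.

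Glutamate decarboxylase makes the transmitter GABA, and its Gad1 and Gad2 forms occur in neurons and islets, Gad2 being the form that antibodies meet in human type 1 diabetes. Gad1 lay at 5.72, 6.03 and 5.81 in wild type, at 5.51, 5.77 and 5.65 in the knockdown and at 5.83, 5.84 and 5.73 in the knockout. The lowest values belonged to knockdown 4 and 6, while knockdown 5 lay above wild type 1. The difference between knockdown and wild type, -0.21 (SE 0.12, 95% interval -0.48 to 0.06, limma adjusted p = 0.983), had the smallest unadjusted p of the 8 antigens in that comparison, 0.109. It was -0.12 without wild type 2, smaller in size than Chrna1 and Mbp then were, and -0.28 without wild type 1. Between knockdown and knockout it was -0.15 (SE 0.12), and between knockout and wild type -0.06 (SE 0.12). The last was 0.03 without wild type 2.

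Gad2 lay at 2.54, 2.40 and 2.43 in wild type, at 2.47, 2.47 and 2.45 in the knockdown and at 2.47, 2.56 and 2.47 in the knockout. Its range of 0.16 was the smallest of the 8 antigens, and only 1.29% of all genes had a smaller SD. The same value stood on 4 of 9 arrays, so this SD need not describe the spread between mice. Gad2 exceeded the highest Y-linked probe set of the same array on 7 of 9 arrays, with a gap between -0.25 and 0.37. Its level was not clearly above that of genes these mice lack, a rough floor because probe sets differ in binding. Its differences between groups, from -0.04 to 0.05, describe values at that floor.

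The eye antigen Rbp3, interphotoreceptor retinoid-binding protein, carries retinoids between photoreceptors and pigment epithelium and is the antigen of experimental uveitis. Rbp3 lay at 2.98, 2.69 and 2.69 in wild type, at 2.74, 2.76 and 2.90 in the knockdown and at 3.22, 2.67 and 2.74 in the knockout. The 2 highest arrays were knockout 7 and wild type 1, the arrays on which the 4 Y-linked genes also stood highest. Rbp3 exceeded the highest Y-linked probe set of the same array on 9 of 9 arrays, by 0.19 to 0.63. It lay above 2.79, the highest Y-linked value of any array, on wild type 1, knockdown 6 and knockout 7 only. Its difference was 0.01 (SE 0.16) for knockdown and wild type, 0.09 (SE 0.16) for knockout and wild type and -0.07 (SE 0.16) for knockdown and knockout. Without knockout 7 the last pair became -0.09 and 0.10, and the first fell to -0.03 when wild type 2 was left out and to -0.04 when wild type 3 or knockdown 6 was.

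**Figure D2:**
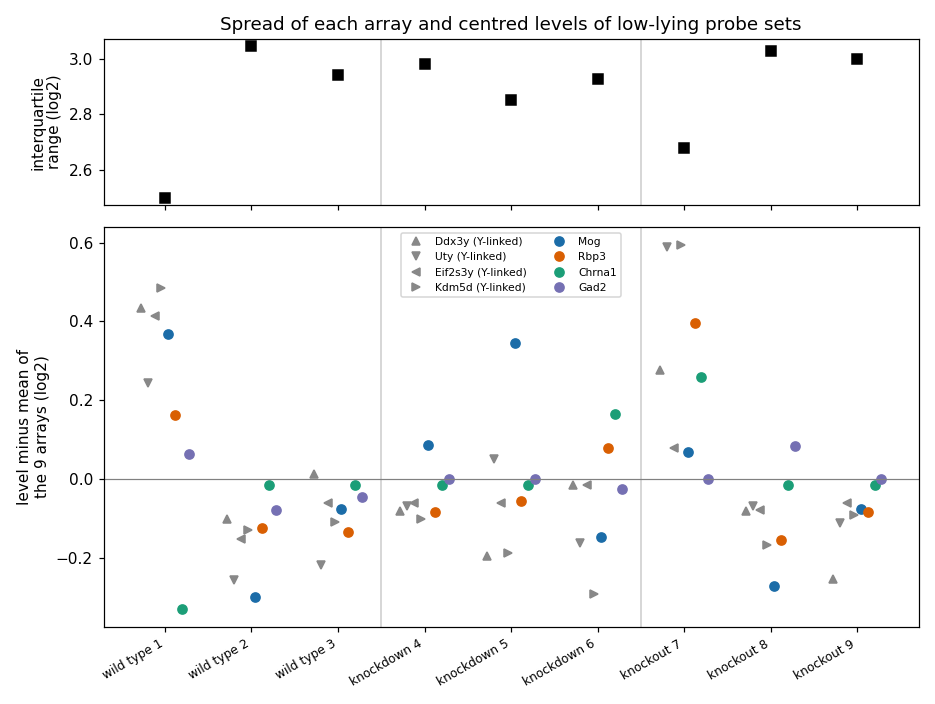
Upper panel, interquartile range of all probe sets per array (log2). Lower panel, level minus the mean of the 9 arrays (log2) for 4 low-lying antigens (coloured circles) and the 4 Y-linked genes (grey triangles). The Y-linked genes stand highest on wild type 1 and knockout 7, the arrays with the smallest interquartile ranges, 2.50 and 2.68, and so does Rbp3, whereas Chrna1 is lowest on wild type 1 and highest on knockout 7.

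In muscle, Chrna1 encodes the alpha subunit of the acetylcholine receptor at the neuromuscular junction, the main target of antibodies in myasthenia gravis. Chrna1 lay at 3.36, 3.67 and 3.67 in wild type, at 3.67, 3.67 and 3.85 in the knockdown and at 3.94, 3.67 and 3.67 in the knockout. The same value stood on 6 of 9 arrays, which the median polish of RMA can produce when few probes vary. By a looser count, 18.6% of all genes had the same value on 4 or more arrays. The group differences thus rest on wild type 1, knockdown 6 and knockout 7, the arrays that left the common value. They were 0.16 (SE 0.13) for knockdown and wild type, 0.20 (SE 0.13) for knockout and wild type and -0.03 (SE 0.13) for knockdown and knockout, the last with a value of 0.06 without knockout 7. Without wild type 1 the first was 0.06 and the second 0.09, and without both wild type 1 and knockout 7 the second was 0. Markers of muscle and of the muscle-like cells known in the thymus were all 5 measured, with a mean per array between 4.64 and 4.93 in wild type, between 4.63 and 4.98 in the knockdown and between 4.75 and 4.95 in the knockout.

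Thyroglobulin, Tg, is the precursor protein of thyroid hormone and an antigen of autoimmune thyroiditis. Tg lay at 4.29 on all 3 wild-type arrays, at 4.29, 4.36 and 4.29 in the knockdown and at 4.29, 4.14 and 4.27 in the knockout. Here too 1 value stood on 6 of 9 arrays, so the SD of 0 in wild type describes the summary of probes and not the spread between mice. The differences were 0.02 (SE 0.09), -0.06 (SE 0.09) and 0.08 (SE 0.09) for knockdown and wild type, knockout and wild type, and knockdown and knockout. Thyroid and parathyroid markers, 7 of 7 measured, had a mean per array between 3.76 and 3.86 in wild type, between 3.74 and 3.81 in the knockdown and between 3.65 and 3.84 in the knockout.

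Atp4a is the catalytic subunit of the gastric proton pump, which acidifies the stomach and is the antigen of autoimmune gastritis. Atp4a lay at 5.84, 6.04 and 5.98 in wild type, at 5.69, 5.91 and 6.01 in the knockdown and at 5.98 on all 3 knockout arrays. This value stood on 4 of 9 arrays, so the SD of 0 in the knockout describes the summary of probes and not the spread between mice. Knockdown 4 was the lowest array and wild type 2 the highest. The difference between knockdown and wild type was -0.09 (SE 0.11), and without knockdown 4 it was 0.0013. Between knockout and wild type the difference was 0.03 (SE 0.11) and turned to -0.03 without wild type 1.

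**Figure D3:**
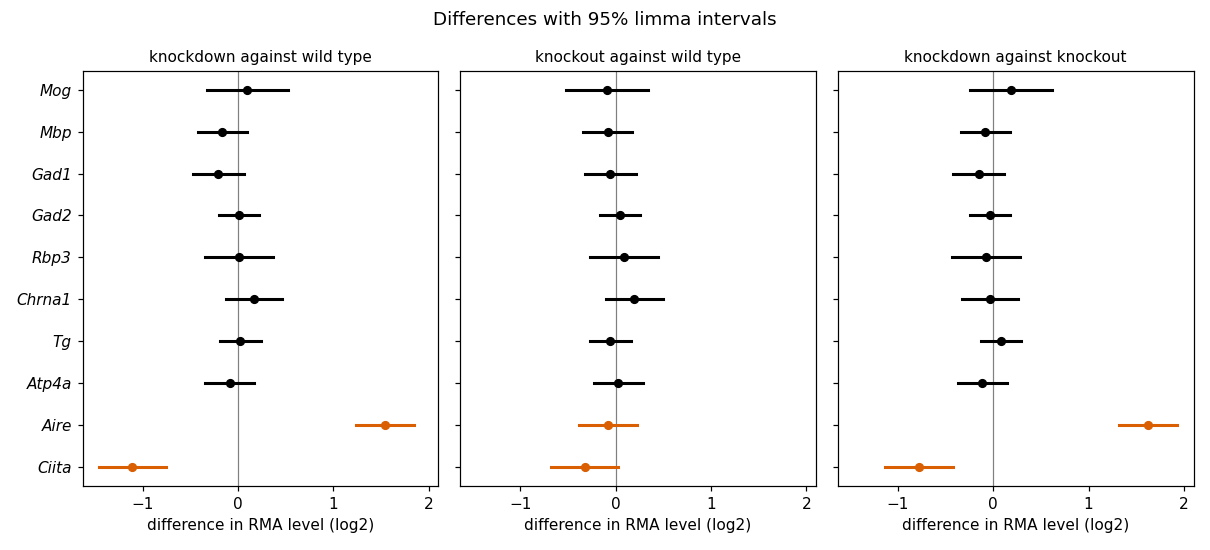
Differences in RMA level (log2, horizontal axis) with 95% limma intervals for the 8 antigens (black) and for Aire and Ciita (orange) in the 3 comparisons. Every antigen's interval includes 0 in all 3 panels, whereas Aire differs by 1.54 between knockdown and wild type and by 1.62 between knockdown and knockout.

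The intervals describe how large a difference in RMA value these arrays leave possible, as far as their SEs hold. In the comparison of knockdown and wild type the 95% intervals of the 8 antigens reached at most 0.52 on the log2 scale in either direction, a 1.44-fold difference, set by Mog. Between knockout and wild type they reached at most 0.52, or 1.43-fold, and between knockdown and knockout 0.61, or 1.53-fold. These bounds hold for the RMA scale, on which differences of dim probe sets are compressed. Chrna1, Tg, Gad2 and Atp4a had 1 value repeated on 4 to 6 of 9 arrays. For these antigens the SE need not describe the spread between mice, and the true bounds may be wider. Gad2 lay near the Y-linked values, so its interval need not bound a change in its transcript. The median difference of the 8 antigens was 0.01 for knockdown and wild type, -0.01 for knockout and wild type and -0.05 for knockdown and knockout, beside medians of all genes of 0.0096, 0.0075 and 0.00048. Among genes above the median level, which leaves Mbp, Gad1 and Atp4a, the first was -0.17.

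The antigens were next compared by their known dependence on Aire. In the knockdown, where the Aire value was 2.92-fold higher than in wild type, the Aire-dependent members had differences of 0.01 (Rbp3) and 0.16 (Chrna1), and the Aire-independent Gad1 had -0.21, none past the threshold. Without wild type 1 these were 0.11, 0.06 and -0.28. In the knockout, where Aire differed from wild type by -0.08 (SE 0.14), Rbp3 and Chrna1 had 0.09 and 0.20 and Gad1 had -0.06. The mean of Rbp3 and Chrna1 lay at 3.17, 3.18 and 3.18 in wild type, at 3.20, 3.22 and 3.37 in the knockdown and at 3.58, 3.17 and 3.20 in the knockout. The knockdown arrays lay just above the wild-type arrays in this mean, where the arrays of these groups did not overlap in 8.25% of all single genes. Chrna1 held the same value, 3.67, on wild type 2 and 3 and knockdown 4 and 5. Among these arrays the mean thus differed only through Rbp3, at 2.69 to 2.76, below 2.79, the highest Y-linked value. On wild type 1 the mean joined a high Rbp3 value with the lowest Chrna1 value of the 9 arrays. The antigens taken singly overlapped or touched between groups. The mean of Rbp3 and Chrna1 minus Gad1, centred on its mean over the 9 arrays, lay at -0.04, -0.34 and -0.12 in wild type, at 0.20, -0.04 and 0.24 in the knockdown and at 0.26, -0.16 and -0.01 in the knockout. The 3 groups overlapped in this quantity, knockdown and wild type by no more than 0.0012, and with 2 antigens on one side and 1 on the other it describes these genes only.

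Reference antigens outside the 8 were added for the same comparison. Ins2 (insulin), Csn2 (beta-casein), Mucl2, which the array names Spt1 (a salivary protein), and Apoa4 (an intestinal apolipoprotein) are known as Aire-dependent, and Crp (C-reactive protein of the liver) as Aire-independent. Apoa4 lay at 8.07, 8.48 and 8.35 in wild type, at 7.49, 7.35 and 7.56 in the knockdown and at 8.08, 8.0 and 8.21 in the knockout. All 3 knockdown arrays lay below all other arrays, and the difference from wild type was -0.84 (SE 0.13, limma adjusted p = 0.068), which missed the threshold. Without wild type 1 it was -0.95 and passed (limma adjusted p = 0.0168), and over the 9 fits that each left out 1 array the adjusted p lay between 0.0168 and 0.379. Mucl2 had 0.62 (SE 0.47), Csn2 -0.39 (SE 0.27), Ins2 -0.13 (SE 0.12) and Crp 0.10 (SE 0.23) in the knockdown relative to wild type, with limma adjusted p-values of 0.983 to 0.985. Mucl2, Csn2 and Crp were lowest on wild type 1, at 4.43, 8.80 and 4.69. Without that array their differences were -0.0094, -0.72 and -0.21, while Csn2 had -0.09 without wild type 2 and Ins2 -0.06 without knockdown 4. Of the 6 Aire-dependent antigens, members included, 3 had higher means and 3 lower means in the knockdown than in wild type, and 0 passed with all 9 arrays.

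**Figure D4:**
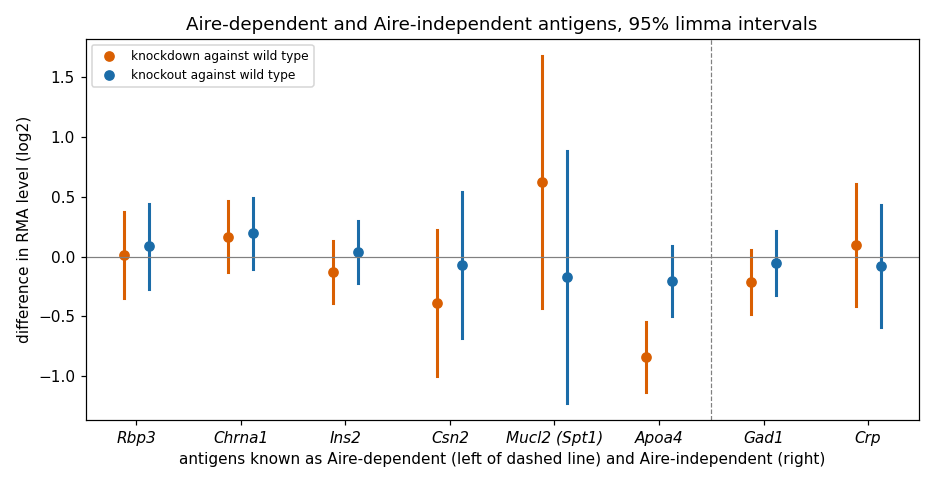
Difference in RMA level (log2, vertical axis) with its 95% limma interval for antigens known as Aire-dependent or Aire-independent, with knockdown against wild type in orange and knockout against wild type in blue; both comparisons share the wild-type arrays. Apoa4 in the knockdown, at -0.84, is the only one of these intervals that leaves out 0, and it missed the adjusted threshold with all 9 arrays.

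Other autoantigens of the same organs gave a similar count. The list held 26 genes, all measured, among them the myelin genes Mag and Mobp, the islet antigens Ptprn and Slc30a8, the photoreceptor gene Sag, the remaining muscle receptor subunits, the thyroid gene Tshr, and Atp4b and Cblif of the stomach. In limma at an adjusted p of 0.05 the number past the threshold was 0 of 26 in each of the 3 comparisons. The shares of all genes were 0.0664% for knockdown and wild type, 0.0459% for knockout and wild type and 0.0408% for knockdown and knockout. At an unadjusted p under 0.05 the number was 0, 0 and 1 of 26 in this order, beside 5.24%, 3.34% and 5.04% of all genes. The median difference was -0.05 for knockdown and wild type, -0.05 for knockout and wild type and -0.0013 for knockdown and knockout. The arrays did not overlap for 3 of 26 genes between knockdown and wild type, 1 of 26 between knockout and wild type and 4 of 26 between knockdown and knockout, beside 8.25%, 4.83% and 9.6% of all genes. These genes, named because their values were seen, were Chrnb1, Slc5a5 and Atp4b in the first comparison and Chrnb1 in the second. In the last they were Cnp, Omg, Slc5a5 and Atp4b. Chrnb1 differed by -0.05 in the first and -0.14 in the second, and held 1 value on 4 of 9 arrays, among them all 3 knockdown arrays. Slc5a5 differed by 0.04 in the first and 0.01 in the last, with 1 value on 4 of 9 arrays and a range of 0.08.

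The smallest p among these genes belonged to Atp4b, the beta subunit of the gastric pump and partner of Atp4a. Atp4b lay at 4.45, 4.58 and 4.47 in wild type, at 4.21, 4.35 and 4.04 in the knockdown and at 5.0, 4.45 and 4.45 in the knockout. The 3 knockdown arrays lay below all others, with differences of -0.43 (SE 0.16, limma adjusted p = 0.794) from the knockout and -0.30 from wild type. The first was -0.25 without knockout 7. Omg, a glycoprotein of myelin and neurons, had 0.39 (SE 0.22) between knockdown and knockout, and 0.12 without knockdown 6. It lay above 2.79, the highest Y-linked value of any array, on wild type 1 and knockdown 6 only, at 2.86 and 3.31. Between knockdown and wild type the genes with the smallest p were Lrp4, a receptor at the neuromuscular junction, with 0.30 (SE 0.14), and Ptprn2, an islet phosphatase-like antigen, with -0.35 (SE 0.17). Without wild type 1 these were 0.16 and -0.13. Between knockout and wild type they were the junction kinase Musk with 0.22 (SE 0.13) and the sarcomere protein titin, Ttn, with 0.19 (SE 0.11), and Musk had 0.12 without knockout 7. None of these 6 genes passed in the comparison named, with all arrays or with any 1 left out.

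Genes with the most similar course over the 9 arrays were sought for each antigen, as the mean absolute difference between values centred on each gene's own mean, among genes with an SD of at least 0.8 times that of the antigen. The nearest genes were Olfr251 and 2700081O15Rik for Mog, at 0.051 and 0.052 on the log2 scale, and Akap12 and Cd200r1 for Mbp, each at 0.040. They were Cyp19a1 and Abca4 for Gad1, each at 0.054, and Cyp2c54 and Clec4d for Gad2, at 0.023 and 0.024. Olfr429 and 4930402F06Rik lay nearest to Rbp3, each at 0.037, and Lekr1 and Dpp6 nearest to Chrna1, at 0.029 and 0.040. Fras1 and Nalcn lay nearest to Tg, at 0.013 and 0.015, and Tmem82 lay near Atp4a, at 0.041. None of these genes was another of the 8 antigens. Some gene is nearest to any antigen by construction. Chrna1, Tg, Gad2 and Atp4a had 1 value on 4 to 6 of 9 arrays, so a small distance need not mean a shared course between mice. Whether the nearest genes are regulated together with the antigens was not tested.

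The stretches before the start sites of 3 antigens are shown to set the Aire-dependent Rbp3 and Chrna1 beside the Aire-independent Gad1 in a feature the arrays did not measure. Each is the 250 bases before the annotated start, 5′ to 3′ on the strand of the gene, from RefSeq on GRCm38.p6. The Rbp3 stretch is chr14:33953753-33954002 on the plus strand, with TAATCC, the core bound by the photoreceptor factor Crx, in capitals (here on the other strand). The Chrna1 stretch is chr2:73580339-73580588 on the minus strand, with CANNTG, the E-box bound by muscle factors such as myogenin, in capitals. The Gad1 stretch is chr2:70561879-70562128 on the plus strand, with CG dinucleotides in capitals.
Rbp3: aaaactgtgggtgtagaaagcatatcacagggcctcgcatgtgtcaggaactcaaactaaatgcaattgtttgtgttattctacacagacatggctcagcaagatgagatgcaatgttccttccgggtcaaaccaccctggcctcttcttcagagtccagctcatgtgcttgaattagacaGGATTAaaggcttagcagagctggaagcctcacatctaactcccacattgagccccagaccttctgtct
Chrna1: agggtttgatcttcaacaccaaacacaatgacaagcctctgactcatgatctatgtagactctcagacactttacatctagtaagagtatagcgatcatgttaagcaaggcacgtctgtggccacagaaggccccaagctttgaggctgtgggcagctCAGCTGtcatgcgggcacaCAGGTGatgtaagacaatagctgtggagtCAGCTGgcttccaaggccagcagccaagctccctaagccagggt
Gad1: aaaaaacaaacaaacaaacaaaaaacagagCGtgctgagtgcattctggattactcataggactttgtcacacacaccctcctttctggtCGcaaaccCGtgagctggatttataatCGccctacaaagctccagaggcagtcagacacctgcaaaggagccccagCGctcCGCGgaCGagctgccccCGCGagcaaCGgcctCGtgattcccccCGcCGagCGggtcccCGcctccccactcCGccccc

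Such stretches were searched for 6 of the 8 antigens, namely Mog, Gad1, Gad2, Rbp3, Chrna1 and Atp4a. Those of Mbp and Tg are not reported here. The Gad1 stretch held 17 CG dinucleotides and that of Gad2 held 13, more than 76.5% and 68.5% of the 32851 stretches of the same length. Mog, Rbp3 and Atp4a held 2 each and Chrna1 held 3, where the median of all stretches was 6. CANNTG, searched on both strands, occurred 3 times in Chrna1, at 92, 73 and 44 bases before the start, 3 times in Rbp3 and in Atp4a, once in Gad1 and in Gad2 and 0 times in Mog, and 66.2% of all stretches held it. TAATCC occurred in Rbp3, at 69 bases before the start, and in Gad1, and in 6.25% of all stretches. These matches describe letters in a window, and their use in thymic cells was not measured.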

How the data were processed

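RNA of 9 sorted cell samples was labelled with biotin and hybridised to 9 arrays. The deposited log2 values were made by the authors with RMA, per the submitters' processing notes (version, build and annotation: not given in the sources used here). Deposited intensities, per the file headers RMA values on a linear scale, equalled them after a log2 transform within 7.16e-10 and were not tested, and the series matrix repeats all 35552 log2 values per array. The deposited q-value score is from an unstated comparison, and the authors' deposited table gives the 8 antigens values of 102.4 or 114.1.

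Gene symbols were updated through RefSeq (GRCm38.p6 names only), and the probe set with the highest mean stood for each of 19593 genes. The limma package (3.58.1, under R 4.3.3) fitted 1 model to all arrays by lmFit and eBayes with 6 residual degrees of freedom, and gave two-sided p-values adjusted over all genes and a threshold of 0.05. With 3 arrays in each of the groups compared, exact permutation would give p = 0.1 at the least. Precision is limited by how few arrays there are.

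The antigens, gene lists, rule for named genes and alternatives were chosen with earlier results of these data known. Always named were the 8 antigens, Ciita, Aire and 5 reference antigens, then the 2 genes with the smallest p per comparison from the list of related antigens, and the 2 nearest genes of each antigen; other list members are examples, and some genes are not reported here. Markers of cortical epithelium, B cells, dendritic cells, Schwann cells and fibroblasts were listed too. The 20 alternatives covered normalization, filters on dim genes, eBayes settings, array weights, the choice of probe sets and samples in the fit, and each array left out in turn. For named genes outside the 8 antigens and for dendritic cell markers, leaving out arrays was added after seeing the data.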

Additional observations from a re-analysis of the deposited data

How the results depend on the processing

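No paired analysis was possible because the replicate numbers run from 1 to 9 and are not shared between groups. Under 20 alternatives the number of antigens past the threshold was 0 in each comparison and in the F test, where that test was run; the smallest limma adjusted p of any antigen under any of them was 0.224. The filter on genes above the median level tested fewer antigens, since low-lying ones were removed, and the median of the 3 left was -0.168 for knockdown against wild type. Signs of the small differences were less stable. Of 24 differences, 13 kept the same sign or reached 0 under every alternative, and 435 of 459 values did. A repeated quantile normalization gave Atp4a -0.015 for knockout against wild type. Array weights gave 0.061 for Mbp and -0.0078 for Atp4a in knockout against wild type, and 0.063 for Rbp3 and 0.054 for Chrna1 in knockdown against knockout. Without both wild type 1 and knockout 7, Mog had 0.014, Mbp 0.037 and Atp4a -0.0301 in knockout against wild type, and Rbp3 had 0.099 and Chrna1 0.0600 in knockdown against knockout. The cause was not tested. Leaving out 1 array turned the sign of 10 differences. For knockdown against wild type the ranges were -0.051 to 0.282 for Mog, -0.019 to 0.052 for Gad2, -0.038 to 0.110 for Rbp3 and -0.159 to 0.0013 for Atp4a. For knockout against wild type they were -0.238 to 0.095 for Mog, -0.125 to 0.032 for Gad1, -0.086 to 0.189 for Rbp3 and -0.0301 to 0.070 for Atp4a. For knockdown against knockout they were -0.176 to 0.099 for Rbp3 and -0.092 to 0.0600 for Chrna1. Chrna1 kept its sign against wild type, from 0.0600 to 0.217 in the knockdown and from 0.092 to 0.248 in the knockout, as did Gad1 in the knockdown, from -0.279 to -0.122. The number of all genes called between knockdown and wild type, 13, was 47 after the repeated quantile normalization, 411 with array weights, 48 without wild type 1 and 2 in a fit of only these groups. Outside the antigens, leaving out 1 array gave -0.0094 to 1.07 for Mucl2 and -0.207 to 0.276 for Crp in knockdown against wild type and -0.210 to 0.013 for Aire in knockout against wild type; without both wild type 1 and knockout 7, Mucl2 had -0.0094 and Crp -0.207, and Apoa4 passed (limma adjusted p = 0.0271). Signal over background limits Gad2, which was not above the highest Y-linked probe set on every array. It also limits Rbp3, which exceeded that probe set on 9 of 9 arrays but by no more than 0.63.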

Other observations

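Markers of other cell types of the thymus were measured beside the antigens, as the mean level of each list per array. Of 7 dendritic cell and macrophage markers, such as Cd68 and Ccr7, all 7 had lower means in the knockdown than in wild type, with a median difference of -0.31, and 0 passed in limma at an adjusted p of 0.05 (2 of 7 at an unadjusted p under 0.05, beside 5.24% of all genes). The arrays did not overlap for 4 of 7, beside 8.25% of all genes. Between knockdown and knockout all 7 were lower too, with a median of -0.38, 0 passing, 3 of 7 at an unadjusted p under 0.05 (5.04% of all genes) and 4 of 7 without overlap (9.6%); without knockout 8 the median was -0.23 and 6 of 7 were lower. Against wild type all 7 stayed lower whichever single array was left out. Their mean lay between 5.35 and 5.43 in wild type, between 4.94 and 5.12 in the knockdown and between 5.22 and 5.59 in the knockout. Fibroblast and endothelial markers, 6 of 6 measured, lay between 4.80 and 4.85 in wild type, between 4.55 and 4.63 in the knockdown and between 4.75 and 4.85 in the knockout. Of these 6, 4 had lower means in the knockdown than in wild type, and 0 passed (0.0664% of all genes). An unadjusted limma p under 0.05 was found for 1 of 6 (5.24% of all genes), and 0 had arrays that did not overlap (8.25%). Schwann cell markers, 5 of 5 measured and listed because these cells make myelin, lay between 3.93 and 4.09, between 3.84 and 4.04 and between 3.81 and 4.00 in the same order of groups. B cell markers, 3 of 3, lay between 3.41 and 3.77, 3.25 and 3.79, and 3.28 and 3.57, and cortical epithelial markers, 3 of 4 measured, between 4.69 and 4.86, 4.60 and 4.74, and 4.65 and 4.90. The part of these cells in the levels of the antigens was not tested.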
